A study of Rattus norvegicus with 12 samples.

Results

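The comparison described here set the response of rat cortical cultures to the total secretome of human glial progenitor cells (GPCs) against their response to the 3–100 kDa proteins of the same conditioned medium. The members are 6 of the 12 libraries of the series, chosen by their treatment labels, and the features are the 10197 genes with a mean of at least 5 TPM (transcripts scaled to a common total per library and to transcript length) over these 6 libraries. The cultures were primary neuroglial cultures of the cerebral cortex of newborn Wistar rats, a mixture of neurons and glia, taken at 10 days in vitro (DIV) and 4 h after the treatment. The groups held 3 libraries each: 3–100 kDa proteins at 15 µg/mL, total secretome at 45 µg/mL and, as the background, an intact control (IC) with no addition. Another 3 libraries were given extracellular vesicles (EV) at 10 µg/mL and serve to choose the EV gene lists and in an alternative fit of all 12 libraries. The labels and the study's methods give different pup ages within the first days of life, the cultures received cytosine arabinoside, which limits dividing glia, and the GPCs were differentiated from induced pluripotent stem cells. The total secretome differed from the 3–100 kDa proteins both in composition and in dose, so these cannot be told apart. The study's methods speak in general of repeats on unrelated cultures, and a correction for the day is described for a plot of IC and EV, but the sources used here do not give the culture, animal or day of each library, so the p-values measure the spread between these samples, which may in part be technical.

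Growth factors in a secretome bind receptors that signal in part through the RAS, RAF, MEK and ERK kinase cascade, while many cytokine receptors use JAK and STAT proteins or NF-kB. Within the first hours the ERK cascade switches on immediate early genes, mostly transcription factors such as Fos, Egr1 and Fosl1, and then a second wave of secreted proteins, receptors and cytoskeletal proteins. The same cascade induces its own brakes, among them the dual specificity phosphatases (Dusp genes), the Sprouty proteins and Errfi1, an inhibitor of the EGF receptor. In neurons, many of the same genes also follow electrical activity, and in astrocytes they accompany the reactive state.

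Levels are the deposited TPM, given in the order of replicates 1, 2 and 3, and differences are of log2(TPM + 1), as total secretome minus 3–100 kDa proteins, with the standard error (SE) of the limma fit. On this scale the change of low genes is understated. TPM keeps no read depth, so the depth behind each value is unknown and a listed 0 is not proof of absence. The ribosomal gene Rps6 was listed at 0 in all 12 libraries. Spearman's rho over the genes tested lay between 0.945 and 0.976 for pairs of libraries given the same treatment and between 0.956 and 0.977 for pairs given different treatments. Same-numbered libraries of both treatments deviated together from their group means (r = 0.411, 0.200 and 0.275 across genes), so the replicate numbers were read as pairs, and the value with the pair as a block is given where it changes a call.

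Most genes tested had nearly the same level after both treatments, although most of them did not pass as responding to treatment at all. For 7404 of the 10197 genes (72.6%) the 95% interval of the difference lay within 1.5-fold in both directions, and with the pairs as a block this held for 8588 genes (84.2%). Among the genes that rose against IC in the mean of both treatments, defined below, the share within 1.5-fold was 67.4%, and among those with a mean rise of 1 to 2 on the log2 scale it was 31.7%. The median difference was −0.0021 and the median size of a difference was 0.081 on the log2 scale. With limma and an FDR threshold of 0.05, 2 genes differed (0.0196%), with an FDR of 0.027 and 0.043. Both are small nucleolar RNA genes with a whole group listed at 0. SNORD12 was at 16.4, 13.8 and 28.2 TPM after 3–100 kDa proteins, at 0 in all 3 libraries of total secretome and at 0, 0 and 17.7 TPM in IC. SNORA36 was at 0 in all 3 libraries of 3–100 kDa proteins, at 8.39, 16.0 and 10.6 TPM after total secretome and at 17.4, 15.0 and 0 TPM in IC. Since 1 or more IC libraries of both genes were at 0 as well, no fold is given, and without small RNA genes no gene passed the threshold in limma, against 241 genes at an unadjusted p under 0.05 (2.36%) in the full fit and 501 (4.91%) with the pairs as a block. With the pairs as a block 5 genes passed (0.049%), the other 3 being Plau, Phlda1 and Errfi1, all lower after total secretome. Neither 2.36% nor 4.91% exceeds the share of 0.05 that an unadjusted p under 0.05 passes on average when no gene differs.

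A wider list was made of the genes with an unadjusted p under 0.05 and a fold over 1.5. It held 86 genes (0.843%), of which 29 were higher (0.284%) and 57 were lower (0.559%) after total secretome, and with the pairs as a block it held 130 genes (1.27%), of which 51 were higher (0.5%) and 79 lower (0.775%). The higher count depended on single libraries, being 79 without replicate 1 of total secretome and 59 without replicate 1 of 3–100 kDa proteins. The lower count was 113 without replicate 1 of 3–100 kDa proteins. Apart from the genes named as passing the FDR threshold, none of the genes described below passed it, and their differences are given as values.

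The difference between the treatments was graded with the size of the response. A response gene was defined by the mean of both treatments against IC, a contrast that does not use the difference between the treatments. In limma 1000 genes passed an FDR of 0.05 in this contrast (9.81%), of which 715 rose (7.01%) and 285 fell (2.79%). The total depended on single libraries, being 447 without replicate 1 and 642 without replicate 3 of IC, 607 and 582 without replicates 2 and 3 of 3–100 kDa proteins, and 568 and 609 without replicates 2 and 3 of total secretome. With any 1 library left out, 374 to 853 genes rose and 73 to 406 fell, in both cases fewest without replicate 1 and most without replicate 2 of IC. Without scaling 639 genes passed, 155 of them lower. Among the 715 genes that rose, 559 were lower after total secretome than after 3–100 kDa proteins (50.7% of all genes were), with a median difference of −0.10. The median was −0.082, −0.11 and −0.13 in pairs 1, 2 and 3. It was −0.18 without replicate 1 of 3–100 kDa proteins, −0.16 without replicate 2 of total secretome and −0.067 without replicate 2 of IC. Of these genes 37 were lower by p and fold (0.559% of all genes were) and 3 were higher (0.284%).

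Genes with a small response were nearly equal, and genes with a large one were further apart. The median difference was −0.04 for the 147 genes whose mean response was at most 0.5 on the log2 scale, −0.09 for the 334 genes between 0.5 and 1 and −0.20 for the 167 genes between 1 and 2. For the 67 genes with a mean response over 2 it was −0.52. Of these 67 genes 60 were lower after total secretome, 32 did not overlap between the treated groups in that direction (2.03% of all genes did not), and none did so in the other direction (1.99%). In pairs 1, 2 and 3 the median of these 67 genes was −0.58, −0.42 and −0.53, and it stayed between −0.65 and −0.35 when any 1 library was left out. Their median response was 2.82 after 3–100 kDa proteins and 2.23 after total secretome. Both of these responses were measured against the same IC libraries.

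**Figure D1:**
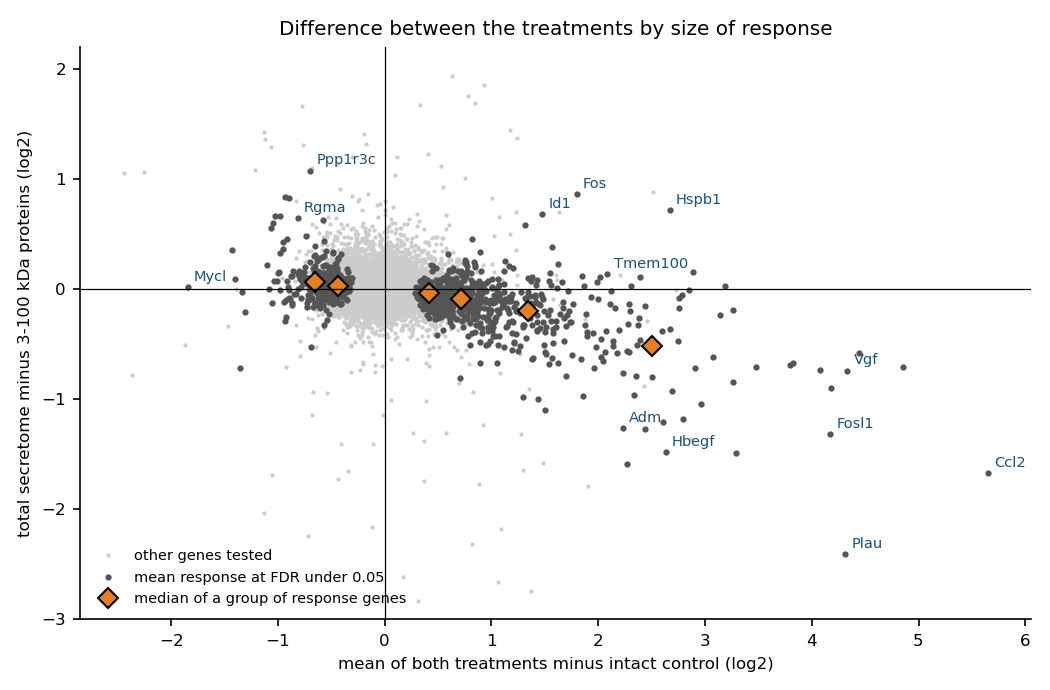
Each point is a gene, with the mean response of both treatments over IC on the horizontal axis and total secretome minus 3–100 kDa proteins on the vertical axis, both on the log2 scale. Dark points passed an FDR of 0.05 in the mean response, diamonds are medians of groups of these genes by size of response, 4 genes (AY172581.17, LOC100125368, LOC679823 and Sccpdh) and the small nucleolar RNA genes lie outside the axes or are not drawn, and the diamonds fall to −0.52 for the 67 genes with a mean response over 2.

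The genes that fell were less clearly graded. Of the 285 genes 186 had a difference above 0 (49.3% of all genes did), with a median of 0.061. By p and fold 8 were higher (0.284% of all genes) and none was lower (0.559%). Without replicate 2 of IC the median turned to −0.0081, and it was 0.0003 without replicate 1 of total secretome, 0.019 without replicate 3 of total secretome and 0.13 without replicate 1 of 3–100 kDa proteins.

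The promoters of 4 of the strongly responding genes are shown first, because each holds a short element known to bind the factors of this cascade. They are the 250 bases before the annotated start in RefSeq (GRCr8), 5′ to 3′ on the strand of the gene, with the element in capitals. Vgf, listed in the files as LOC100909521, lies on the minus strand at chr12:25277021-25277270 and holds the cyclic AMP response element TGACGTCA 90 bases before the start. Emp1 (chr4:169943980-169944229, plus strand) and Anxa2 (chr8:78986002-78986251, plus strand) hold the AP-1 heptamer TGAGTCA, 212 and 123 bases before the start. Egr2 (chr20:21054442-21054691, minus strand) holds a CArG box, the element of serum response factor, 83 bases before the start.
Vgf: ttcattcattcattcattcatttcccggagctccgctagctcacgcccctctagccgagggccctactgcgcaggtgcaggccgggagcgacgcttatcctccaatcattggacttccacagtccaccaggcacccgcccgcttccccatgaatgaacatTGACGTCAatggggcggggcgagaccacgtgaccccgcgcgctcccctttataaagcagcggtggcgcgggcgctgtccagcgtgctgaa
Emp1: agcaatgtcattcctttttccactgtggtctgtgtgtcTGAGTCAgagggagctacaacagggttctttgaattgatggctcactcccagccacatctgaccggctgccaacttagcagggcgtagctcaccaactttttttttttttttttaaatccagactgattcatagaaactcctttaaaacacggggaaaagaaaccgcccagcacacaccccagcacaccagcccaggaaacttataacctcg
Anxa2: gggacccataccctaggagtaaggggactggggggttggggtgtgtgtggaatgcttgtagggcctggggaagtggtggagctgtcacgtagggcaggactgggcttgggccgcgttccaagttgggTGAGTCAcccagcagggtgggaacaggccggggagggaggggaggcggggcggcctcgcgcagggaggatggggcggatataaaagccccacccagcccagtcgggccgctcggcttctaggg
Egr2: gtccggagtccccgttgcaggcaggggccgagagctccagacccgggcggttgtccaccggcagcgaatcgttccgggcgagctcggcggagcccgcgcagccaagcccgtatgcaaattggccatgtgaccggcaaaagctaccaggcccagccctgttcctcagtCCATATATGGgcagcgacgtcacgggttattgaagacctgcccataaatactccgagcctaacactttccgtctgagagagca
The search covered TGACTCA and TGAGTCA, which are each other's reverse complement, TGACGTCA, which is its own, and the CArG box, whose pattern is also symmetric. Of 33469 such windows over all genes, 4.05% held an AP-1 heptamer, 1.59% the cyclic AMP response element and 1.5% a CArG box. RefSeq windows were matched for 51 of the 67 genes with a mean response over 2, and 5, 2 and 2 of their 55 windows held the 3 elements. For 10 of the 12 genes named as lower after total secretome a window was matched, and 2 of 10 held an AP-1 heptamer, 1 held the cyclic AMP response element and none held a CArG box. For the 12 genes named as higher, 5 had windows, and 1 of 7 windows held an AP-1 heptamer. A match is a description of letters and not of binding.

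Among the named genes of the EGF receptor and ERK cascade were a ligand, several transcription factors and brakes with lower levels after total secretome. Hbegf, which encodes a ligand of the EGF receptor, was at 95.02, 116 and 185 TPM after 3–100 kDa proteins, at 23.2, 54.9 and 69.9 TPM after total secretome and at 12.4, 11.1 and 11.2 TPM in IC. The treated groups did not overlap, and the level after total secretome was 37.4% of that after 3–100 kDa proteins, with a difference of −1.48 (SE 0.46). Against IC, the gene rose by 3.38 after 3–100 kDa proteins (limma FDR 0.0018), and the value after total secretome was 1.89 (FDR 0.072). Errfi1, the inhibitor of the EGF receptor, was at 33.1, 42.7 and 60.7 TPM, at 15.7, 18.3 and 27.8 TPM and, in IC, at 10.9, 7.41 and 12.5 TPM. Its 3 pairs differed by −1.08, −1.11 and −1.12, and with the pairs as a block the FDR was 0.0316. Phlda1, which encodes a pleckstrin homology-like protein induced by growth factors, was at 68.8, 85.6 and 108 TPM after 3–100 kDa proteins, at 25.0, 34.8 and 49.2 TPM after total secretome and at 11.1, 7.64 and 9.98 TPM in IC. Its difference was −1.27 (SE 0.31), with an FDR of 0.0316 with the pairs as a block and no overlap of the treated groups.

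Fosl1, a partner of Jun in the AP-1 factor, was at 22.1, 29.8 and 35.5 TPM after 3–100 kDa proteins and at 5.59, 13.7 and 16.2 TPM after total secretome, while IC held 0, 0.138 and 0 TPM. Egr1, a zinc finger factor, was at 67.2, 119 and 94.3 TPM, at 35.2, 62.3 and 64.4 TPM and, in IC, at 13.0, 11.8 and 9.94 TPM. Both genes rose after either treatment against IC, and their treated groups did not overlap (differences of −1.32, SE 0.40, and −0.80, SE 0.31). Egr2, whose CArG box is printed above, was at 14.2, 29.1 and 28.6 TPM, at 9.69, 16.5 and 16.3 TPM and below 0.5 TPM in all IC libraries. Its treated groups overlapped, but all 3 pairs lay below 0, at −0.56, −0.71 and −0.79, and the gene met p and fold only with the pairs as a block. Dusp6, the phosphatase that acts on ERK, was at 39.0, 53.7 and 52.8 TPM after 3–100 kDa proteins and at 29.4, 36.0 and 34.9 TPM after total secretome, with a difference of −0.52 (SE 0.18).

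Genes of several secreted proteins were among the named genes. Plau, the urokinase that activates plasminogen, was at 41.1, 54.4 and 97.1 TPM after 3–100 kDa proteins, at 5.04, 10.7 and 20.5 TPM after total secretome and at 0.891, 0 and 0.287 TPM in IC. The level after total secretome was 18.8% of that after 3–100 kDa proteins, with a difference of −2.41 (SE 0.53) and an FDR of 0.0305 with the pairs as a block. Even so, the gene rose against IC after both treatments, by 5.53 (FDR 0.0012) and by 3.11 (FDR 0.039). Vgf, a secreted neuronal peptide precursor with the cyclic AMP response element shown above, was at 300, 311 and 276 TPM, at 202, 177 and 154 TPM and, in IC, at 10.5, 10.2 and 11.02 TPM. The spread within groups was small, and its FDR of 0.095 was the lowest among the genes that did not pass, with a difference of −0.74 (SE 0.08). Adm, the vasodilator adrenomedullin, was at 9.48, 12.5 and 8.70 TPM after 3–100 kDa proteins, at 2.94, 4.01 and 3.97 TPM after total secretome and at 0.831, 0.675 and 0.200 TPM in IC. These levels make a difference of −1.27 (SE 0.22) with no overlap.

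The chemokines Ccl2 and Ccl7, which attract monocytes, followed the same order. Ccl2 was at 78.1, 154 and 78.5 TPM after 3–100 kDa proteins, at 9.61, 68.9 and 39.4 TPM after total secretome and at 0.378, 0 and 0 TPM in IC. Pair 1 differed by −2.95, against −1.07 and −0.998 in the other pairs, so the size rests in part on replicate 1 of total secretome. For Ccl7 the difference was −1.49 (SE 0.50). Timp1, an inhibitor of matrix metalloproteinases, was at 218, 200 and 260 TPM after 3–100 kDa proteins and at 97.0, 170 and 169 TPM after total secretome, a difference of −0.67 (SE 0.27).

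Several genes of the cell membrane and the cytoskeleton that rose strongly against IC had lower levels after total secretome, while others, described further on, did not. Emp1, a tetraspan membrane protein with the AP-1 heptamer shown above, was at 36.1, 44.9 and 51.0 TPM after 3–100 kDa proteins, at 30.5, 26.0 and 21.8 TPM after total secretome and at 1.43, 0.664 and 1.18 TPM in IC. Anxa2, a calcium-dependent phospholipid-binding protein, was at 33.9, 30.7 and 24.8 TPM, at 16.6, 20.04 and 16.5 TPM and, in IC, at 2.73, 3.58 and 1.01 TPM. Tnfrsf12a, the receptor of the cytokine TWEAK, was at 88.6, 94.4 and 99.9 TPM, at 49.4, 58.8 and 65.3 TPM and, in IC, at 0.953, 3.10 and 1.23 TPM. In all 3 genes the treated groups did not overlap, and their differences of −0.74, −0.71 and −0.71 (SE 0.17, 0.13 and 0.17) left the level after total secretome at about the same share of the other treatment, 59.2%, 59.4% and 61.3%. Cd44, the hyaluronan receptor, was at 63.5, 98.7 and 104 TPM and at 51.8, 60.8 and 61.2 TPM, against 4.87, 1.08 and 2.08 TPM in IC. Ptrf, which encodes the caveolar coat protein cavin, was at 51.1% and PVR, a nectin-like adhesion receptor, at 40.3% of the level after 3–100 kDa proteins, without overlap. Tagln2 and Cnn2, which bind actin, differed by −0.47 (SE 0.09) and −0.52 (SE 0.17).

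Further genes of the same kind belonged to chromatin and receptor signalling. Hmga1, an architectural chromatin protein, was at 459, 483 and 443 TPM after 3–100 kDa proteins, at 260, 283 and 274 TPM after total secretome and at 69.2, 89.1 and 70.9 TPM in IC. The difference was −0.76 (SE 0.10), and the replicates of each group lay close together. Rgs16, which shortens the signal of G proteins, differed by −0.97 (SE 0.21), and Mchr1, a receptor of melanin-concentrating hormone, by −0.98 (SE 0.21), again without overlap.

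**Figure D2:**
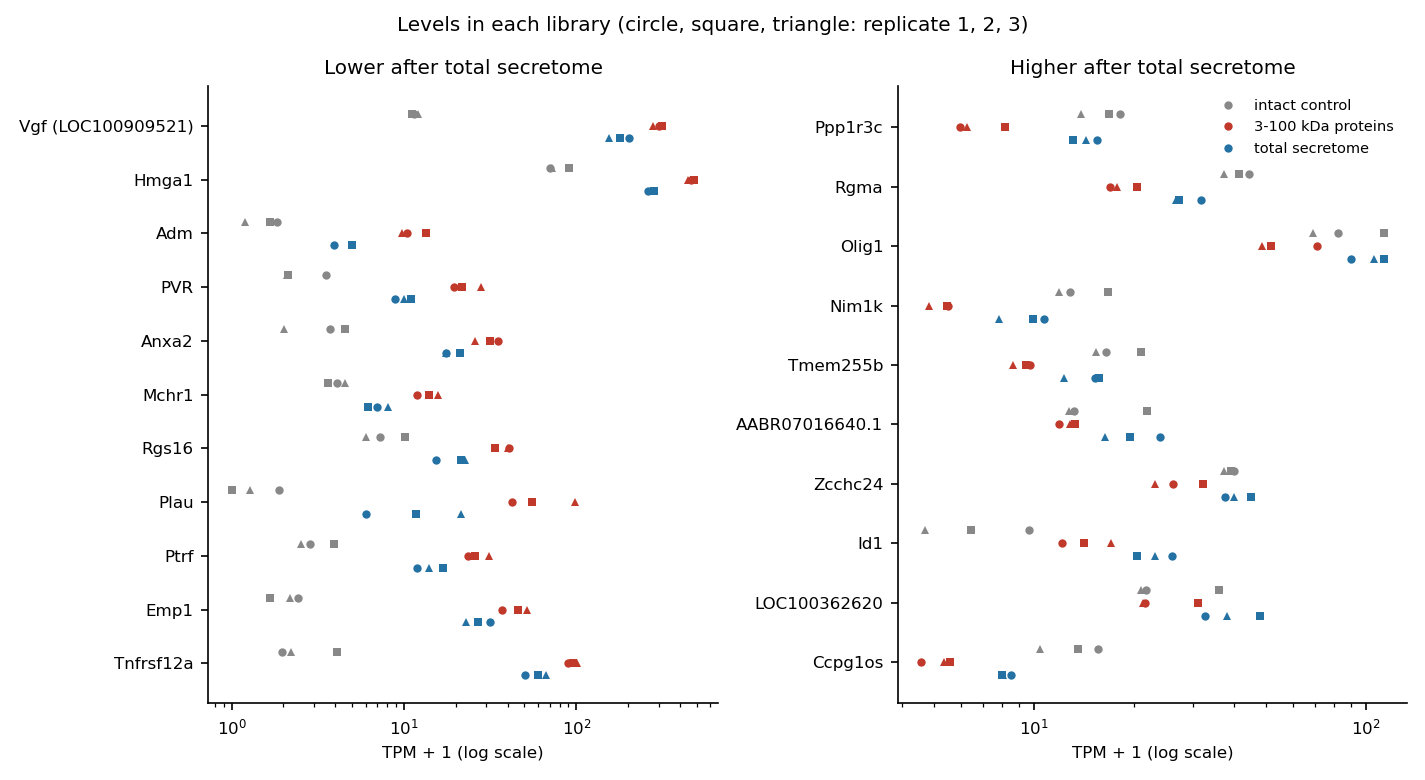
TPM + 1 on a log axis in each library for the genes named by rule as lower (left) or higher (right) after total secretome, with grey for IC, red for 3–100 kDa proteins and blue for total secretome, and the symbol giving the replicate. The small nucleolar RNA genes and 1 gene not reported here are left out, and in every gene shown the 3 red and the 3 blue points do not overlap, as the rule required.

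Of the 12 genes named as higher after total secretome, 5 (Ppp1r3c, Rgma, Nim1k, Tmem255b and Ccpg1os) fell against IC after 3–100 kDa proteins, (0.429% of all genes did), and none of the 5 passed against IC after total secretome. These genes were chosen for low levels after 3–100 kDa proteins, so nothing is read from this count. Ppp1r3c, a subunit that directs protein phosphatase to glycogen, was at 4.98, 7.18 and 5.29 TPM after 3–100 kDa proteins, at 14.4, 12.1 and 13.3 TPM after total secretome and at 17.1, 15.8 and 12.8 TPM in IC. It fell by 1.23 after 3–100 kDa proteins (limma FDR 0.017), and the value after total secretome was −0.16 (FDR 0.64), with a difference between the treatments of 1.08 (SE 0.17). Rgma, a repulsive axon guidance molecule, was at 15.9, 19.4 and 16.7 TPM, at 30.9, 26.4 and 25.7 TPM and, in IC, at 43.3, 40.4 and 36.2 TPM. In this gene the total secretome libraries lay between both other groups, with a difference of 0.64 (SE 0.11). Nim1k, a protein kinase gene, was at 4.50, 4.45 and 3.83 TPM, at 9.69, 8.92 and 6.84 TPM and, in IC, at 11.8, 15.6 and 10.9 TPM, with a difference of 0.84 (SE 0.18).

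A transcription factor of the oligodendrocyte lineage was in the same list. Olig1 was at 70.0, 50.5 and 47.4 TPM after 3–100 kDa proteins, at 89.1, 112 and 104 TPM after total secretome and at 81.3, 112 and 67.9 TPM in IC. The difference was 0.86 (SE 0.17), and neither treatment passed against IC, with values of −0.59 (FDR 0.21) and 0.27 (FDR 0.58). Of the other genes named by the rule, Tmem255b, Zcchc24, AABR07016640.1, LOC100362620 and Ccpg1os differed by 0.60 to 0.68.

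A few genes went against the gradation. They were picked out after their values were seen, as genes that passed in the mean response with a difference in the direction of the response and an unadjusted p under 0.05. They were 5 of the 715 genes that rose (107 of all 10197 genes were higher at this p). Of the 285 genes that fell there was 1 (134 of all genes were lower). Both shares lay below those of all genes. Fos, the founding AP-1 member, was at 7.5, 11.2 and 13.0 TPM after 3–100 kDa proteins, at 15.5, 22.5 and 21.6 TPM after total secretome and at 4.46, 4.05 and 2.24 TPM in IC. Its difference was 0.86 (SE 0.26) with no overlap, opposite in sign to that of Fosl1, and all 3 pairs lay above 0. Against IC, Fos rose by 2.23 after total secretome (limma FDR 0.0095), and it did not pass after 3–100 kDa proteins (FDR 0.067). Id1, an inhibitor of basic helix-loop-helix factors and a target of BMP signalling, was at 11.1, 13.2 and 16.0 TPM, at 25.0, 19.3 and 22.03 TPM and, in IC, at 8.63, 5.45 and 3.70 TPM. Its difference was 0.68 (SE 0.19). Hspb1, a small heat shock protein, differed by 0.72 (SE 0.29), the matrix protein gene Fbln2 by 0.32 (SE 0.11) and the myelin-associated gene Pllp by 0.45 (SE 0.17). The only such gene among those that fell was Zfp580, a zinc finger gene, with −0.52 (SE 0.18).

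Some strong responses were nearly equal after both treatments. Of the 67 genes with a mean response over 2, 12 (17.9%, against 72.6% of all genes) had a 95% interval of the difference within 1.5-fold, namely Dusp4, Dusp14, Nptx2, Cav1, Gfra1, Rgs4, Spp1, S1pr3, Tmem100, Tmbim1, Nfatc2 and AABR07052897.3. Dusp4, a nuclear phosphatase of ERK, was at 107, 162 and 99.6 TPM after 3–100 kDa proteins, at 122, 128 and 107 TPM after total secretome and at 25.7, 26.2 and 29.7 TPM in IC. Nptx2, a secreted synaptic pentraxin induced by activity, was at 33.4, 39.2 and 37.3 TPM, at 30.5, 37.4 and 32.3 TPM and, in IC, at 7.59, 6.52 and 5.50 TPM. Cav1, the coat protein of caveolae, was at 34.5, 44.2 and 33.8 TPM, at 34.5, 39.4 and 31.3 TPM and, in IC, at 10.4, 6.81 and 8.31 TPM. The intervals of the difference were −0.37 to 0.33 for Dusp4, −0.45 to 0.19 for Nptx2 and −0.38 to 0.20 for Cav1. Tmem100, a membrane protein gene, was slightly higher after total secretome in all 3 pairs, with an interval of −0.09 to 0.36. The phosphatase genes held both kinds, with Dusp4 and Dusp14 within 1.5-fold and Dusp6 at −0.52.

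Shared reductions were found as well. Mycl, a relative of Myc, was at 9.35, 8.63 and 8.51 TPM after 3–100 kDa proteins, at 10.4, 7.80 and 8.72 TPM after total secretome and at 36.7, 37.0 and 31.9 TPM in IC. It fell by 1.85 after 3–100 kDa proteins and by 1.84 after total secretome (limma FDR 0.0011 and 0.0024), and the interval of the difference was −0.35 to 0.38. Ccng2, an atypical cyclin raised in resting cells, was at 20.4, 21.3 and 18.4 TPM, at 19.3, 21.0 and 19.9 TPM and, in IC, at 49.6, 37.1 and 46.8 TPM. Its value was −1.08 after each treatment. Narf, Mxd4, Map2k6, Amotl2, Dact1 and Pnrc1, all among the 10 genes of lowest p that fell, had intervals within 1.5-fold too, whereas Rgma, also among the 10, did not, nor did Ddit4, whose interval was −0.16 to 0.86.

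**Figure D3:**
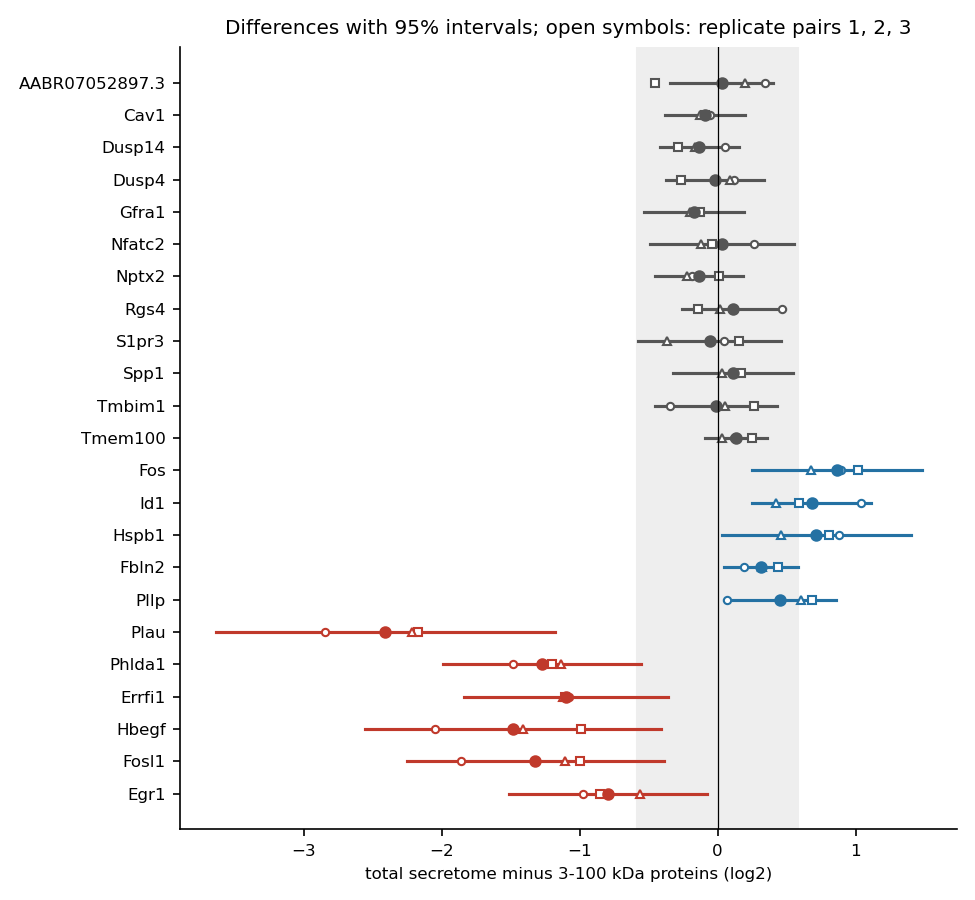
Total secretome minus 3–100 kDa proteins on the log2 scale for genes alike after both treatments (grey), genes that went against the gradation (blue) and genes of the ERK and protease groups (red). Filled points are the estimates, bars their 95% intervals, open symbols the 3 replicate pairs and the shaded band 1.5-fold in either direction, within which the bars of all 12 grey genes lie.

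Gene lists placed the named genes among their relatives. They are described by counts and medians beside those of all genes, of which 50.7% lay below 0 with a median of −0.0021. The most negative medians belonged to plasminogen activation and protease inhibitors (−0.30, 5 of 7 tested genes below 0), the caveolin, annexin, S100 and galectin group (−0.27, 10 of 11), the Egr, Nr4a and other immediate early genes (−0.24, 11 of 13), actin, SRF and YAP targets (−0.20, 16 of 20) and ERK feedback (−0.17, 12 of 14). In pairs 1, 2 and 3 the median of the protease list was −0.12, −0.16 and −0.46. It was −0.30, −0.35 and −0.30 for the caveolin group and −0.37, −0.32 and −0.31 for the Egr and Nr4a list. For the actin list it was −0.23, −0.07 and −0.33, and for ERK feedback −0.02, −0.28 and −0.27. By p and fold 2, 3, 2, 2 and 2 genes of these lists were lower (0.559% of all genes) and none was higher (0.284%). With the pairs as a block 5 of the Egr and Nr4a list were lower, with Egr2, Ier3 and Klf10 added, and 3 of the actin list, with Vcl added (0.775% of all genes were lower in that fit). Within the feedback list, the phosphatase gene Dusp5 was at −0.79 and the Sprouty genes Spry4, Spry2 and Spry1 were at −0.46, −0.32 and −0.21. Among the Egr and Nr4a genes, the nuclear receptor genes Nr4a1, Nr4a2 and Nr4a3 stood near 0, at 0.19, −0.10 and −0.07.

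In the lists that follow single genes met p and fold, which 0.559% of all genes did as lower and 0.284% as higher. Whether any list shifted as a whole was not tested. The 9 AP-1 factors had a median of −0.04 but reached from −1.32 for Fosl1 to 0.86 for Fos, while Fosb, at 0.15 with an interval of −0.48 to 0.78, had levels of 4.89, 7.25 and 7.88 TPM after 3–100 kDa proteins and 5.61, 8.61 and 8.32 TPM after total secretome. Of 5 EGF-family genes tested, Hbegf alone was lower by p and fold, and Nrg1, Erbb4, Tgfa and Egfr lay between −0.18 and 0.22. Of 5 chemokines and cytokines, Ccl2 and Ccl7 were lower by p and fold, whereas Cx3cl1, the neuronal chemokine, was at −0.01. The activity-regulated neuronal genes (median −0.07, 10 of 14 below 0) had Vgf as their only gene by p and fold, and glycolysis and hypoxia targets (−0.05, 18 of 26) had only Adm. For FoxO, insulin and IGF targets (−0.05, 9 of 14) this was Igfbp3, and for glucocorticoid and progesterone targets (−0.08, 6 of 9) Errfi1. TGF-beta and BMP targets (0.01, 6 of 12 below 0) had Id1 and heat shock genes (−0.08, 10 of 13) had Hspb1, both higher.

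Other lists had no gene past p and fold, although with the pairs as a block Thbs1, which encodes a matrix protein, was lower (−0.91) in the list of integrins and matrix. Cholesterol synthesis had a median of −0.14 with 18 of 24 genes below 0, among them Msmo1, a sterol oxidase gene, at −0.39. Synaptic genes had a median of −0.09 with 21 of 26 below 0, and the intervals of 22 of the 26 lay within 1.5-fold (84.6%, against 72.6% of all genes). Integrins and matrix (−0.03), Myc and nucleolar genes (−0.04), gp130 and STAT3 signalling (0.01), NF-kB targets (−0.01), interferon response (0.05), unfolded protein response (−0.01), NRF2 (0.01), metallothionein and iron handling (0.03), fatty acid synthesis (−0.01) and mitochondrially encoded transcripts (0.01) had medians near 0. Stat3 itself, the factor below gp130, was at 60.7, 76.2 and 74.9 TPM after 3–100 kDa proteins and at 67.1, 81.0 and 75.3 TPM after total secretome, against 28.9, 29.1 and 25.7 TPM in IC. It rose after both treatments by 1.33 and 1.40 (limma FDR 0.0053 and 0.0049).

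Genes of the cell cycle and DNA replication had the highest median of the pathway lists, 0.23, with 19 of 24 genes above 0 (49.3% of all genes were). No gene of the list reached p and fold, and in pairs 1, 2 and 3 the median was 0.16, 0.38 and 0.02. Mki67, the proliferation marker, was at 0.41 and the mitotic kinase gene Aurkb at 0.46. Of the 5 genes below 0, the lowest was Ccnd1, the growth factor-induced cyclin, at 158, 211 and 182 TPM after 3–100 kDa proteins and at 94.6, 153 and 146 TPM after total secretome, a difference of −0.51 (SE 0.23).

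**Figure D4:**
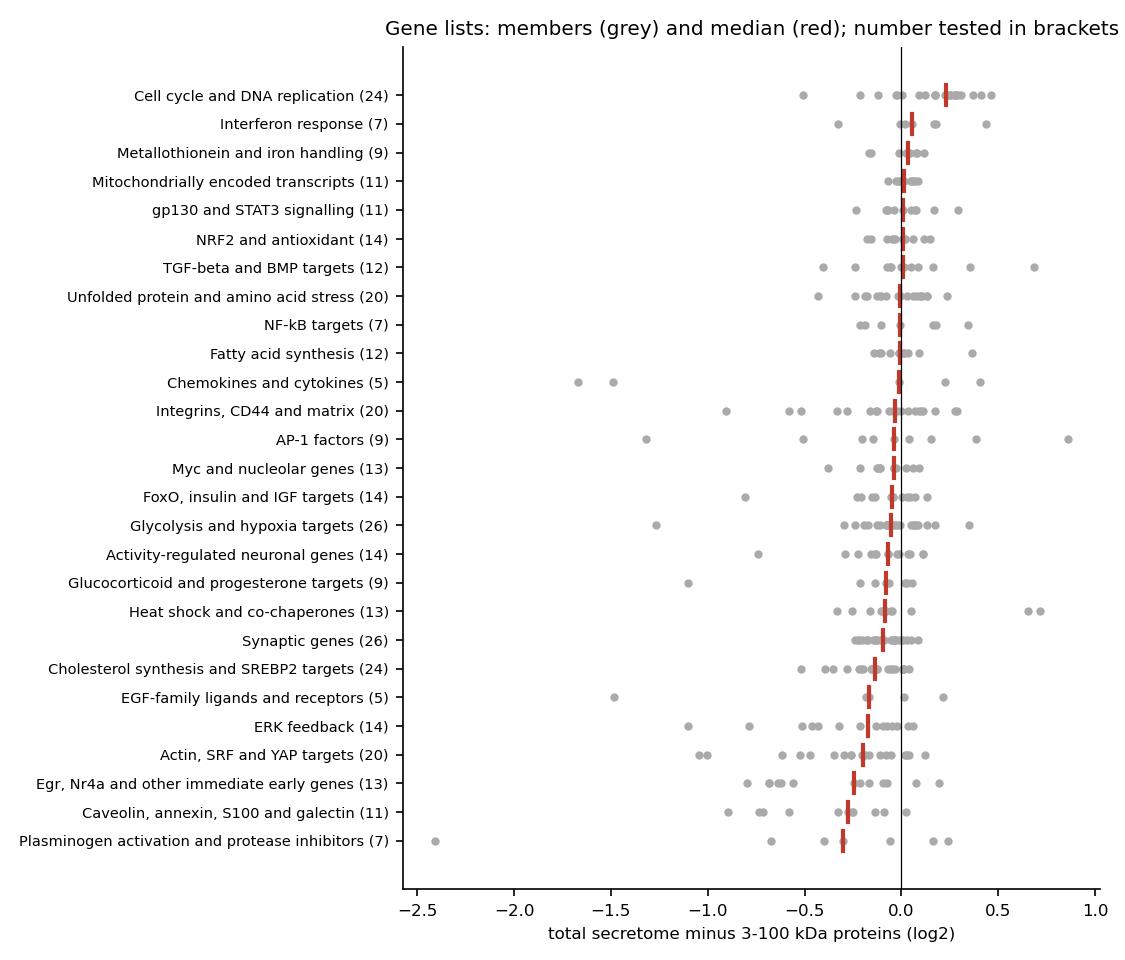
Each grey point is a tested gene of the list named on the left and each red bar is the median of the list, as total secretome minus 3–100 kDa proteins on the log2 scale, with the number of genes tested in brackets. The medians run from −0.30 for plasminogen activation to 0.23 for the cell cycle, with single genes such as Plau and Ccl2 far from their lists.

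Markers of the cell types in the cultures were compared as sums of TPM. Neuronal markers (10 genes) summed to 3148–3844 TPM after 3–100 kDa proteins and 3094–3949 TPM after total secretome, and all 10 lay within 1.5-fold. The 9 astrocyte markers summed to 1261–1657 and 1447–1847 TPM, with all 9 differences above 0 and a median of 0.10. The 9 markers of the oligodendrocyte lineage summed to 160–245 TPM after 3–100 kDa proteins, 283–333 TPM after total secretome and 227–305 TPM in IC. The treated groups did not overlap, and in pairs 1, 2 and 3 the sum was 36.0%, 35.2% and 76.8% higher after total secretome. In pair 2 the sums were 225 and 304 TPM, of which Olig1 alone held 50.5 and 112 TPM, so most of that rise was Olig1. The differences of all 8 markers tested lay above 0 with a median of 0.48, among them Pdgfra, the receptor of oligodendrocyte precursors (0.53), the lineage factors Olig2 (0.48) and Sox10 (0.52), and the myelin gene Mbp (0.29). Their median was 0.31, 0.13 and 0.69 in pairs 1, 2 and 3. Of the 8 markers 4 were higher in all 3 pairs (12.4% of all genes), and 2 did not overlap between the treated groups (1.99%). Mbp was at 37.4, 19.6 and 17.8 TPM after total secretome, against 19.5, 22.6 and 15.8 TPM after 3–100 kDa proteins. Mog, which was not tested, was lower, with means of 0.60 TPM after 3–100 kDa proteins and 0.29 TPM after total secretome. Only Olig1 reached p and fold. The sums of markers of microglia were at most 1.28 TPM and of endothelial cells at most 0.758 TPM in the treated libraries, and those of pericytes and fibroblasts at most 3.10 TPM and of erythroid cells at most 4.62 TPM, while ependymal markers summed to 7.29–9.69 TPM. In these bulk samples fewer cells of a type and less RNA per cell cannot be told apart. Olig1, named above as higher after total secretome, is itself one of these markers, and the part of the lineage in its difference was not tested.

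**Figure D5:**
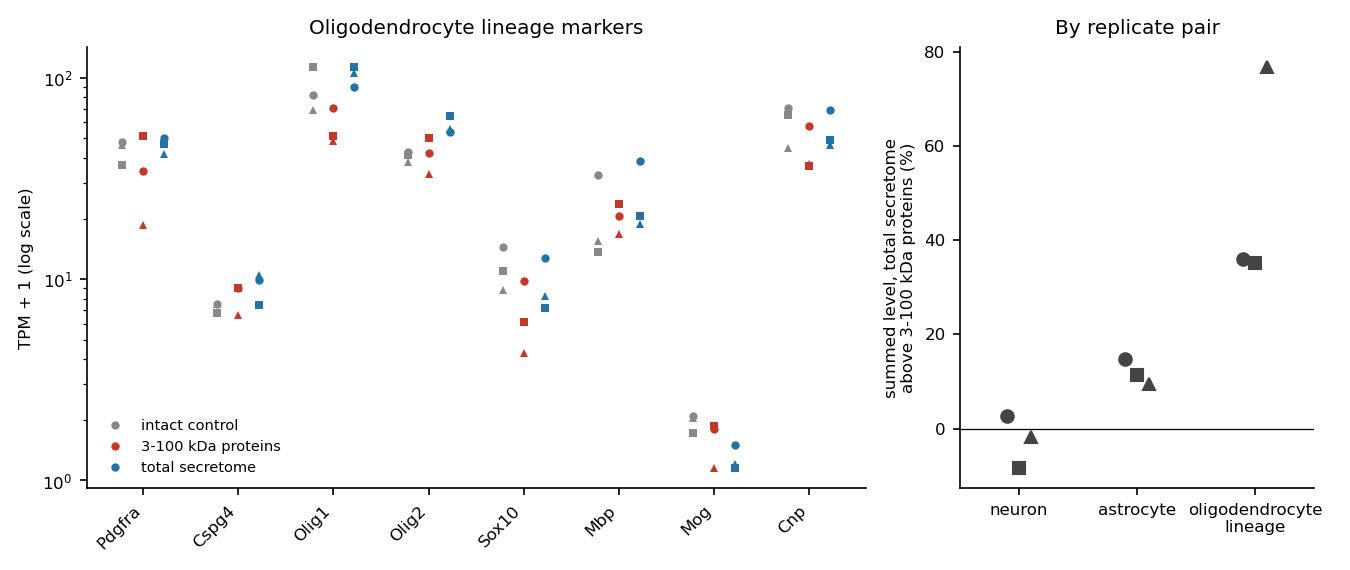
Left, TPM + 1 on a log axis of 8 of the 9 oligodendrocyte lineage markers in each library, with the colour giving the group and the symbol the replicate. Right, the summed level of 3 marker lists after total secretome as a percentage above that after 3–100 kDa proteins in each replicate pair, where the oligodendrocyte lineage lies at 35.2% to 76.8% and the neuronal markers on both sides of 0.

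A list from libraries outside the comparison gave the same order. Against IC, 122 genes were higher after EV by p and fold (1.19%), and 117 of them were tested between the other treatments, 96 of which also rose in the mean response. Of these 117 genes 89 were lower after total secretome than after 3–100 kDa proteins, with a median of −0.23. By p and fold 17 were lower (0.559% of all genes) and 3 higher (0.284%). Without replicate 2 of IC, replicate 3 of 3–100 kDa proteins or replicate 1 of total secretome the median was −0.11, −0.15 and −0.14. Of 26 genes lower after EV (0.254%), 19 were tested, 15 of which were higher after total secretome, with a median of 0.43 that lay between 0.074 without replicate 3 of EV and 0.61 without replicate 1 of total secretome. Taken against IC in their own fits, which share the control libraries, 320 of 10264 genes passed after 3–100 kDa proteins (3.12%), 276 of them higher (2.69%) and 44 lower (0.429%), and 197 of 10255 after total secretome (1.92%), 167 of them higher (1.63%) and 30 lower (0.293%). These counts moved strongly with single libraries, from 83 without replicate 3 of 3–100 kDa proteins to 459 without replicate 2 of IC, and from 24 without replicate 3 of total secretome to 806 without replicate 2 of IC, so their order was not a stable difference between the treatments. With the replicate number as a block 115 genes passed after 3–100 kDa proteins and 205 after total secretome, the reverse order. Same-numbered libraries of 3–100 kDa proteins and IC had correlations of −0.048, −0.283 and 0.269. The data therefore do not show the pairing that this block assumes for 3–100 kDa proteins against IC.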

How the data were processed

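RNA of primary neuroglial cultures was sequenced in 12 libraries, and the 6 libraries of total secretome and 3–100 kDa proteins were compared, with 3 IC libraries as background and 3 EV libraries for the EV lists. By the study's methods, reads were trimmed, assigned to rat transcripts by Salmon (Rnor 6.0 per the labels) and brought to gene level by tximport. The files name no unit, and since every library has the same total the deposited values were taken as TPM. The labels and the methods of the study name different library kits. TPM keeps no depth, so no counting interval was computed.

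Rows of one gene name were summed, libraries were scaled by median-of-ratios factors, genes with a mean of at least 5 TPM over the libraries compared were kept, and log2(TPM + 1) was fitted with limma 3.58.1 (lmFit, eBayes with trend; R 4.3.3). P-values were adjusted by Benjamini and Hochberg. No test of a single value was used, since 3 against 3 libraries allow no exact permutation p below 0.1. The named genes are the 12 per direction by FDR, then by p among genes with p under 0.05, a fold over 1.5 and no overlap, the 10 per direction of lowest p in the mean response and up to 3 per list. Genes named beyond this rule were chosen after their values were seen. The members and lists were chosen with earlier results of these data known. The method was tested on simulated data. The pairing by replicate number comes from the data and is not stated in the labels. Between both treatments, every correlation of same-numbered libraries was over 0.1. With IC, it was 0.267, 0.133 and 0.200 for total secretome in pairs 1, 2 and 3. For the protein fraction with IC it was −0.048, −0.283 and 0.269. The data therefore do not show the pairing of the protein fraction with IC, although the block was also used in fits that hold IC. Alternatives changed the scaling, pseudocount, filter, trend, row choice, block, libraries fitted and single libraries. Some single genes are not reported here.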

Additional observations from a re-analysis of the deposited data

How the results depend on the processing

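The number of genes past the FDR threshold in limma was 1 with quantile normalisation, 5 with the replicate pairs as a block, and 0 with a pseudocount of 0.1 or 5, with all 12 libraries in one fit or without small RNA genes (chosen after seeing the data), and between 0 and 2 with 1 library left out, against 241 genes at an unadjusted p under 0.05 in the reported fit. By p and fold, higher genes numbered 14 with a pseudocount of 5, 90 without a filter, 69 with at least 1 TPM in 3 libraries and 51 with the block, and lower genes 111 without a filter and 90 with at least 1 TPM. Leaving out a library gave 24 to 79 higher and 44 to 113 lower genes, and 5958 to 6873 genes with an interval within 1.5-fold. Mean-response genes numbered 639 without scaling (155 lower) and 447 to 1259 with a library left out (374 to 853 higher, 73 to 406 lower). Their median difference was −0.144 without scaling and −0.184 to −0.0673 with a library left out for those that rose, and −0.0081 to 0.127 for those that fell, whose sign turned without replicate 2 of IC. For a mean response over 2 the median was −0.66 with a pseudocount of 5 and −0.645 to −0.355 with a library left out. Against IC, 3–100 kDa proteins gave 115 genes with the block, 764 with all 12 libraries and 83 to 459 with a library left out. Total secretome gave 205 genes with the block, 433 with all 12 libraries and 24 to 806 with a library left out. The EV lists had medians of −0.34 to −0.106 (higher) and 0.074 to 0.614 (lower) with a library left out, and the lower list 0.147 without a filter and 0.173 with all 12 libraries. The cause of these shifts was not tested. No difference of a named gene with an unadjusted p under 0.05 changed sign under any alternative run, and among the genes named by rule or passing with the block, the replicate block changed the FDR call of Plau, Phlda1 and Errfi1 and the p and fold call of Egr2 and Ier3.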

Other observations

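Among the widest differences outside the named genes were those of genes listed at 0 in part of the libraries. Sccpdh was listed at 0 in all 3 libraries of 3–100 kDa proteins, at 27.1, 7.39 and 0 TPM after total secretome and at 30.5, 0 and 0 TPM in IC. LOC679823 was listed at 0, 3.36 and 0 TPM after 3–100 kDa proteins, at 4.12, 5.66 and 17.4 TPM after total secretome and at 9.38, 10.7 and 8.33 TPM in IC. AY172581.17 went the other way, at 54.4, 23.1 and 22.5 TPM after 3–100 kDa proteins and at 53.8, 0 and 0 TPM after total secretome. In each gene a library of the same group as others above 0 was listed at 0 or near it, and whether these are failed estimates was not tested. Genes of the small RNA names took 3.20% to 6.87% of all TPM in the 6 treated libraries.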
